A study of Mus musculus with 3 samples.

Results

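The genes described here are 9 myeloid markers and factors (Adgre1, Csf1r, Lyz2, Spi1, Cebpa, Cebpb, Cd14, Fcgr3 and Tyrobp), found by name among the 24901 gene rows of mRNA tables made from CH12, a B lymphoma line of the mouse used to study antibody class switching. All 9 had a row, and 6 of the 9 met a minimum of 1 CPM (the count scaled to library size) and 30 counts in at least 1 library, as did 10754 genes in all. The groups were a control with no stated treatment or time, cells given TGFb at 5 ng/ml for 6 h and cells given the same dose for 24 h, with 1 library each, and all 3 cultures grew in RPMI-1640 medium with serum and b-mercaptoethanol. How long the control was kept in culture is not given, so time in culture and treatment cannot be told apart. Nothing in the labels names a genotype or clone. The 9 genes were chosen by name and with their levels in these 3 libraries known, so their values are a description, and with 1 library per group no test was run.

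Macrophages and monocytes share progenitors with lymphocytes, and part of their gene programme is set by a small group of transcription factors. PU.1, encoded by Spi1, is required in both myeloid and B cells, while C/EBPa and C/EBPb, encoded by Cebpa and Cebpb, are known for driving myeloid fate and can convert B cells to macrophage-like cells when forced. Their known targets include receptors of the macrophage surface, such as the CSF1 receptor, and the lysozyme gene Lyz2.

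The control library held 51386096 counts, that of 6 h 64229808 and that of 24 h 27487231, and 1 count was worth 0.0206, 0.0155 and 0.0345 CPM. Of 14 B cell markers, 12 were measured, and the summed level of all 14 was 2181, 2091 and 2292 CPM. Among them, Cd22 was 8.94-fold lower at 24 h than in control. Over all measured genes, 258 were at least 2-fold higher and 39 at least 2-fold lower at 6 h, and 797 and 217 at 24 h. The deposited TPM values, which are scaled per transcript length, moved the median gene by 0.26 on the log2 scale at 24 h and gave 1182 and 77, and total counts moved it by 0.16 and gave 1075 and 118.

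The set was split between genes with steady counts and genes with almost none. Spi1, Tyrobp, Fcgr3, Csf1r, Cebpb and Adgre1 were present in each library, and all of them met the minimum in control already. Cebpa, Cd14 and Lyz2 were at or close to 0, so for these 3 the data go against the description of the set as expressed in CH12 cells. In bulk RNA, fewer cells with a transcript and less of it per cell cannot be told apart.

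**Figure D1:**
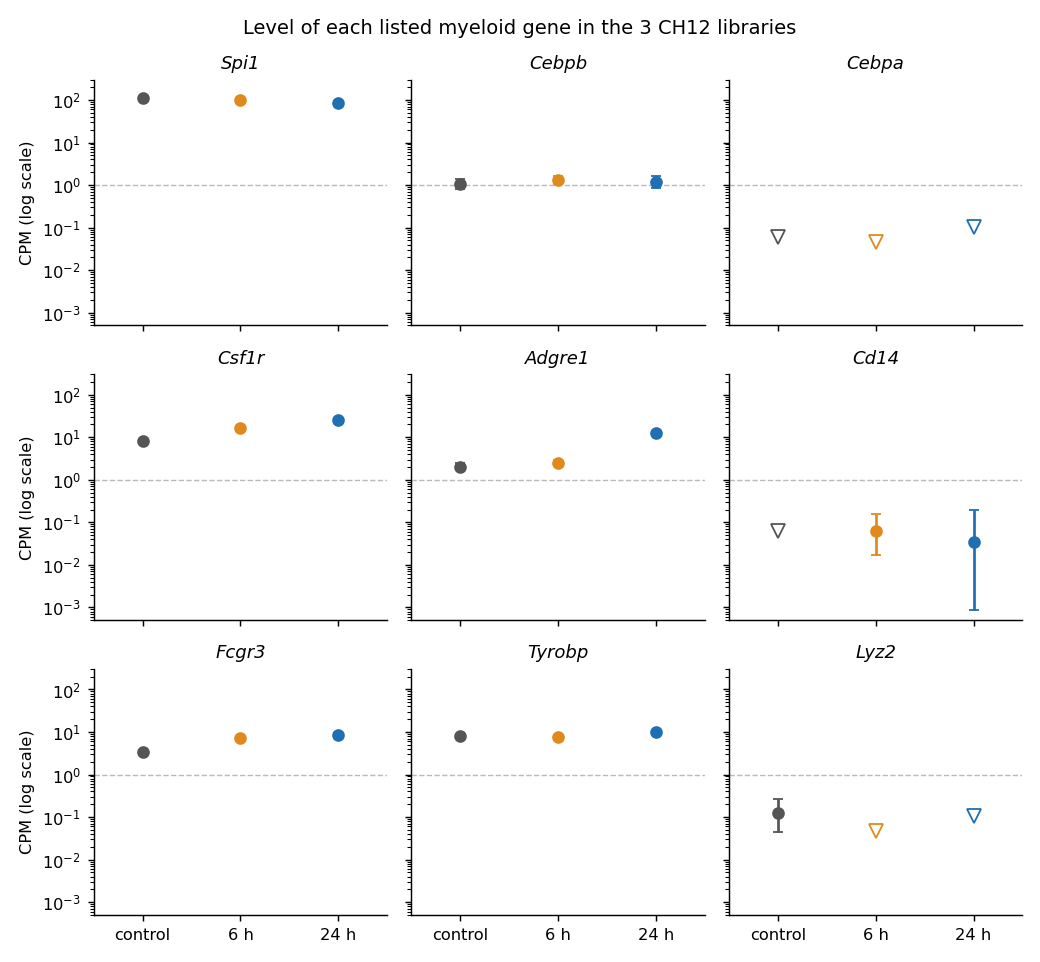
Normalized CPM (log scale) of each of the 9 genes in the control, 6 h and 24 h libraries, with exact 95% Poisson intervals that cover counting error only; open triangles mark a count of 0, drawn at the CPM of 3 counts, and the dashed line is 1 CPM. Spi1 lies near 100 CPM in each library, Cebpa is at 0 in all 3, and Adgre1 stands apart at 24 h.

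Among the transcription factors, Spi1 (chromosome 2, 91082374 to 91115759; positions here are those of GRCm38, the assembly of mm10) was the most abundant gene of the set. It had 125.5 TPM in control, 126.5 at 6 h and 115.7 at 24 h, and 91.0% of the genes with counts in control had a lower TPM. In normalized CPM the values were 109.1, 98.5 and 83.5. At 24 h its log2 ratio to control was -0.39, a level 1.31-fold lower (95% interval 1.25 to 1.37, counting error only). The size of that difference moved with the scaling, to -0.12 with TPM, -0.14 without a trend on transcript length and -0.23 with total counts. Its small difference at 6 h, a log2 ratio of -0.15, became 0.01 with the deposited TPM and 0.002 without the length trend.

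The C/EBP genes were near the bottom of the range. Cebpa (chromosome 7, 35119293 to 35121928) had 0 counts in each library, which allows at most 0.0617, 0.0466 and 0.103 CPM when 3 counts are taken as the limit. Cebpb (chromosome 2, 167688915 to 167690432) had 52, 86 and 35 counts, or 1.07, 1.34 and 1.21 CPM. The 3 Cebpb levels overlapped within their counting intervals, and the ratio of 24 h to control was 1.13 (0.713 to 1.76). Part of the annotated transcript of Cebpb is also covered by Tmem189, a gene on the opposite strand with 2050, 2577 and 1058 counts. Of 1455 windows of 50 bases along the Cebpb transcript, 264 (18.1%) occur in transcripts of Tmem189. The strand setting of the counting is not given in the sources used here, so reads from that stretch cannot be told apart, although the deposited Cebpb counts were whole numbers.

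Among 5 other genes listed with the C/EBP family by name or role (Cebpd, Cebpe, Cebpg, Cebpz and Ddit3), 4 were measured, all but Cebpe. Cebpd, another activator of the family, had 6.71, 7.59 and 18.2 CPM and was 2.72-fold higher at 24 h than in control (2.36 to 3.13), with some reads shared with another gene. It alone of the 4 passed the 2-fold limit at 24 h. Of all 10397 genes that met the minimum in control, as these 4 did, 5.44% were at least 2-fold higher and 2.09% at least 2-fold lower at 24 h. Cebpg and Ddit3, whose products pair with other C/EBP proteins, lay within 2-fold of control at both times. The median log2 ratio of these 4 genes, 0.01 at 6 h, turned to -0.01 with DESeq2 size factors. At 24 h it was -0.05, and positive with TPM, with total counts and without the length trend.

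Genes for relatives and partners of PU.1 were mostly present. Of 25 listed, 20 were measured and 19 met the minimum in control. Of the 19, Bach2, Id2 and Gfi1 were at least 2-fold higher at 24 h and 0 genes lower, beside the 5.44% and 2.09% of all such genes. Their median log2 ratio was 0.34, against -0.03 over all genes that met the minimum in control. Bach2, a repressor that opposes both plasma cell and myeloid genes in B cells, had 12.3, 37.2 and 61.4 CPM. Id2, an inhibitor of E proteins, had 23.2, 76.1 and 59.1 CPM. Gfi1, a repressor, was 2.04-fold higher (1.67 to 2.48), and just under the limit with DESeq2 size factors (log2 ratio 0.997). Gata1, an erythroid factor, had 15 counts in control and 52 at 24 h and met the minimum only through the 24 h library. Spib, the B cell relative of PU.1, was 1.44-fold higher at 24 h (1.42 to 1.47) and stood at 273.3, 302.3 and 473.9 TPM, above Spi1 in each library. Runx1, which acts beside PU.1 at myeloid promoters, was 1.89-fold lower (1.60 to 2.26), and past the limit with the length trend removed (log2 ratio -1.18).

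Among the surface receptors, Csf1r, Adgre1 and Fcgr3 were at least 2-fold above control at 24 h, and Cd14 had almost no counts. Csf1r, the receptor for CSF1 and IL-34 on which most macrophages depend (chromosome 18, 61105572 to 61131139), had 405, 1057 and 749 counts, or 8.33, 16.4 and 25.8 CPM. The 3 levels did not overlap within their counting intervals. Csf1r was 1.97-fold higher at 6 h (1.76 to 2.22) and 3.10-fold higher at 24 h (2.74 to 3.50), and between 6 h and 24 h the ratio was 1.57 (1.43 to 1.73). None of the 3821 windows of 50 bases along its transcript occurred in a transcript of another gene, although the annotated spans of Csf1r and Hmgxb3, on the opposite strand, share 873 bases.

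Adgre1 encodes F4/80, the classical surface marker of mouse macrophages (chromosome 17, 57358581 to 57483529). It had 99, 161 and 375 counts, or 2.04, 2.503 and 12.9 CPM. The control and 6 h levels overlapped within their intervals, with a ratio of 1.23 (0.951 to 1.59). The 24 h library stood apart, 6.35-fold above control (5.07 to 8.001) and 5.16-fold above 6 h (4.28 to 6.25). Adgre1 was the only one of the 9 genes at least 2-fold apart between 6 h and 24 h.

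Cd14, a coreceptor for lipopolysaccharide (chromosome 18, 36725064 to 36726815), had 0, 4 and 1 counts. These levels are at the limit of what the depth can show, and no fold is given.

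Fcgr3, an activating receptor for IgG (chromosome 1, 171051169 to 171065915), had expected counts of 161.47, 466.5 and 248.92, or 3.31, 7.26 and 8.58 CPM. Both treated libraries lay above control, and their own intervals met, with a ratio of 24 h to 6 h of 1.18 (1.01 to 1.38). Fcgr3 was 2.19-fold above control at 6 h (1.83 to 2.64) and 2.59-fold at 24 h (2.12 to 3.18).

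The counts of Fcgr3 were not whole, and its transcript shares stretches with Fcgr2b, the inhibitory IgG receptor of B cells. The sequences are shown because they set which reads can be told apart. Of 1298 windows of 50 bases along Fcgr3, 166 (12.8%) also occur in Fcgr2b. The longest identical run is 129 bases, at positions 313 to 441 of the Fcgr3 transcript and 402 to 530 of the Fcgr2b transcript, inside the coding part of both. In Fcgr3 it covers chr1:171057691-171057792 in exon 3 and chr1:171054167-171054193 in exon 4 on the minus strand, and in Fcgr2b chr1:170967980-170968081 and chr1:170966674-170966700, also in exons 3 and 4. The run is in capitals below, followed by the next 30 bases in lower case, from GENCODE M21 transcripts matched by RefSeq accession. It ends at a base where the transcripts differ.
Fcgr3: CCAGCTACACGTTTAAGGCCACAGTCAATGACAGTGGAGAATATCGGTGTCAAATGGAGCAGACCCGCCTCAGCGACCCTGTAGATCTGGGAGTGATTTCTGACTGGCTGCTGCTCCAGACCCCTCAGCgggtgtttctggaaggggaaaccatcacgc
Fcgr2b: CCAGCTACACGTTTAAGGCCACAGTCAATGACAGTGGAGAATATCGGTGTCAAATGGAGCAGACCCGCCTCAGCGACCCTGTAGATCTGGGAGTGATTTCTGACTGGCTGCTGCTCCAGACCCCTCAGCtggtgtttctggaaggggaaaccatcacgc

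A read of 50 bases that lies wholly in such a run has no base that tells the 2 genes apart. Fcgr2b itself had 13.6, 20.1 and 28.7 CPM and was 2.11-fold higher at 24 h than in control (1.91 to 2.35). The sum of both genes, which does not depend on how reads were split between these genes, was 16.9, 27.3 and 37.3 CPM. It was 1.62-fold above control at 6 h (1.49 to 1.76) and 2.21-fold at 24 h (2.01 to 2.42).

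**Figure D2:**
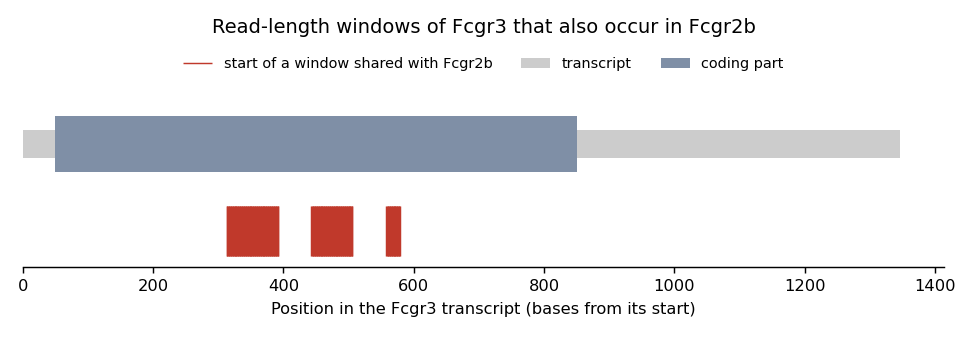
Fcgr3 transcript drawn in bases from its start (grey), with its coding part (blue-grey, positions 51 to 851); red lines mark the start of each 50-base window that also occurs in a transcript of Fcgr2b. The 166 shared windows form separate blocks, all inside the coding part.

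Of the 9 genes, 4 had a promoter entry in the RefSeq table of GRCm38.p6 (Lyz2, Cebpa, Cebpb and Fcgr3). In the 250 bases before the start, both strands were searched for GAGGAA (a core of PU.1 sites), TTGCNNAA (C/EBP), TGTGGT (Runx) and CAGAC (Smad), which occur in 23.3%, 9.56%, 14.05% and 42.2% of all 32851 entries. Fcgr3, the gene of these 4 that passed the 2-fold limit, held 1 match each for PU.1, C/EBP and Smad. Lyz2 held 1 Runx match, and Cebpa and Cebpb held none of the 4 motifs. A match in these letters is a description of the window and not a binding site. The table holds 2 starts for Fcgr3, both inside the annotated span of the gene, with the same number of matches for each motif. The window of one, chr1:171059404-171059653 on the minus strand of GRCm38.p6, is given 5′ to 3′ with the PU.1 match in capitals (TTCCTC, the motif on the other strand). The match ends at the base before this start and lies a few bases farther from the other (window chr1:171059395-171059644).
Fcgr3 promoter: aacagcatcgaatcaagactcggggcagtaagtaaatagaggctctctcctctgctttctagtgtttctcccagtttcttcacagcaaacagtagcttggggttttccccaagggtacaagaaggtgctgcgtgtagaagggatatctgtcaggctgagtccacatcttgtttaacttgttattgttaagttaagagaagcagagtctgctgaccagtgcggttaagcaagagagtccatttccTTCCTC

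Tyrobp encodes DAP12, an adaptor that carries the signal of many myeloid and NK receptors (chromosome 7, 30413782 to 30417582). It had 383, 502 and 292 counts, or 7.88, 7.80 and 10.1 CPM. Control and 6 h were at the same level within counting error, a log2 ratio of -0.01 that was positive with total counts (0.07), the deposited TPM (0.15) and the length trend removed (0.20). The 24 h library was 1.28-fold above control (1.09 to 1.49), a log2 ratio of 0.35 that became 0.64 with TPM and 0.73 without the length trend. None of the 515 windows of 50 bases along its transcript occurs in another gene.

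Lyz2, the lysozyme of macrophages and granulocytes (chromosome 10, 117277541 to 117282272), had 6 counts in control and 0 in both treated libraries. The control level was 0.123 CPM (0.0453 to 0.269). Of 1267 windows along Lyz2, 195 (15.4%) occur in its near copy Lyz1, which had 0 counts in each library.

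By length-scaled level, the order in control was Spi1 (125.5 TPM), Tyrobp (29.4), Fcgr3 (4.15), Csf1r (3.32), Cebpb (1.17) and Adgre1 (0.98). The intervals of Fcgr3 and Csf1r met (3.53 to 4.84 and 3.004 to 3.66 TPM), as did those of Cebpb and Adgre1 (0.874 to 1.53 and 0.796 to 1.19 TPM). At 24 h the order was Spi1, Tyrobp (45.9 TPM), Fcgr3 (13.0), Csf1r (12.4), Adgre1 (7.47) and Cebpb (1.59), with Fcgr3 and Csf1r again within their intervals and Adgre1 now above Cebpb. Adgre1 passed 27.8% of the genes with counts in control and 39.4% at 24 h. Csf1r went from 35.8% to 46.9%, so both stayed in the lower part of the transcriptome.

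**Figure D3:**
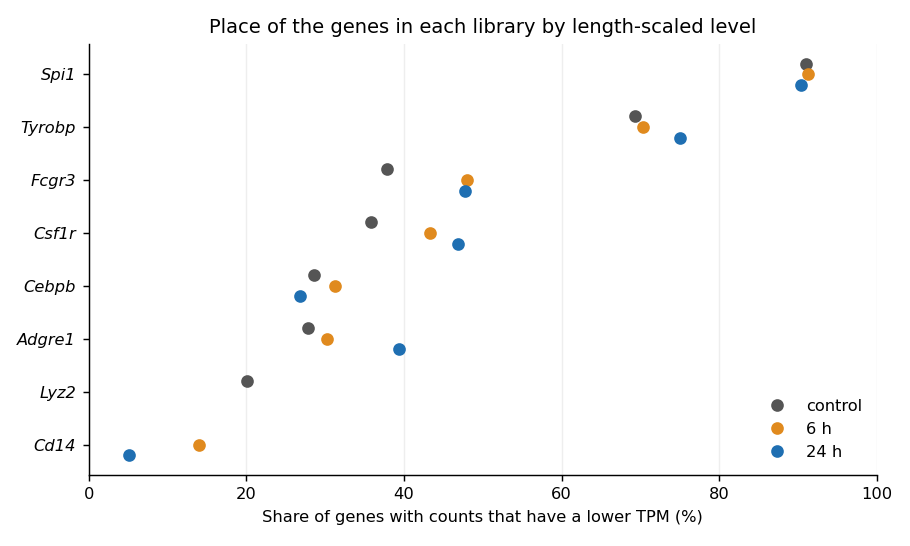
Share (%) of the genes with counts in a library that have a lower TPM than the gene named, for control, 6 h and 24 h; no point is drawn where the count was 0. Spi1 lies at 90.3% or above in each library and Tyrobp between 69.3% and 75.1%, while Adgre1 moves from 27.8% in control to 39.4% at 24 h.

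By the size rule (at least 2-fold, with the minimum met in the higher library), 1 of the 9 genes was higher and 0 lower at 6 h, that is Fcgr3, where 2.4% of all measured genes were higher and 0.363% lower. Csf1r, at 1.97-fold, lay just under the limit and passed it with total counts and the deposited TPM. At 24 h, 3 of 9 were higher (Adgre1, Csf1r and Fcgr3) and 0 lower, beside 7.41% and 2.02% of all measured genes. At 24 h against 6 h, Adgre1 was higher and 0 were lower, beside 1.88% and 0.372% of all measured genes. Since the genes were chosen with these comparisons known, nothing is read from these shares. The comparisons at 6 h and 24 h use the same control library.

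**Figure D4:**
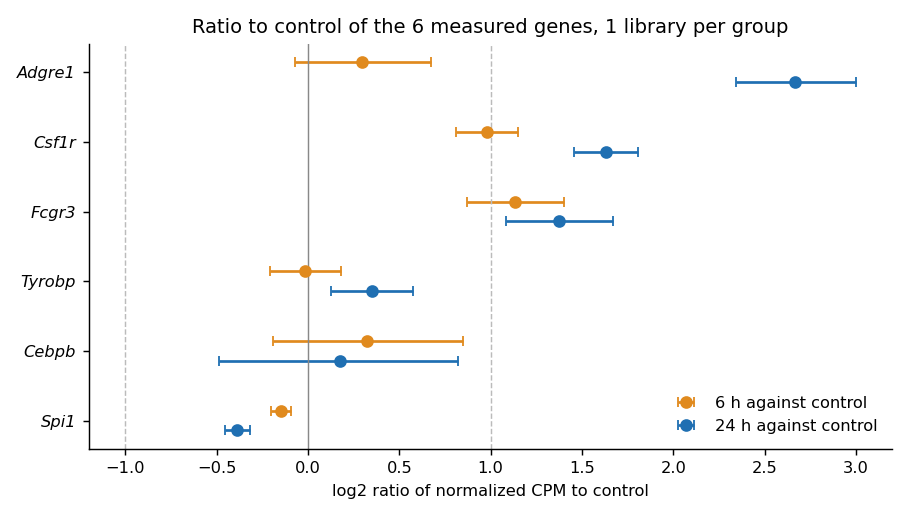
log2 ratio of normalized CPM to control at 6 h (orange) and 24 h (blue) for the 6 genes that met the minimum, with exact 95% intervals that cover counting error only; dashed lines mark 2-fold. Adgre1 is near control at 6 h (0.30) and far above it at 24 h (2.67), while Csf1r and Fcgr3 are above control at both times.

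Other genes of macrophages and monocytes were few. Of 30 listed, 9 were measured, and 5 of the 9 met the minimum in control (Aif1, Cd68, Fcgr4, Ms4a7 and Sirpa). Of these 5, Aif1 was at least 2-fold above control at 24 h and 0 were below, beside 5.44% and 2.09% of all such genes, and their median log2 ratio was 0.54. Aif1, a calcium-binding protein of macrophages also called IBA1, had 2.10, 3.37 and 10.7 CPM. Ms4a7 lay just under the limit (log2 ratio 0.93). It passed with total counts (1.09), with TPM (1.20) and without the length trend (1.21). The other 4 measured genes met the minimum only through a treated library, so that a difference was fixed by how they were selected, and their values are a description. Itgax, the integrin chain CD11c, had 0.535, 1.46 and 10.4 CPM and was 19.5-fold higher at 24 h (13.0 to 30.3), with some reads shared with another gene. Itgam, the integrin chain CD11b, had 0.864, 0.902 and 3.24 CPM, and like Adgre1 and Aif1 its 6 h level lay nearer to control than to 24 h. Vcam1, an adhesion molecule, was 16.9-fold above control at 6 h and 34.2-fold at 24 h, from 5 counts in control. Cx3cr1, a chemokine receptor of monocytes, went from 3 counts in control to 68 at 6 h and 41 at 24 h, a ratio of 22.9 at 24 h with a wide interval of 7.30 to 116.

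Many defining macrophage genes had no counts at all. Cd163, Timd4, Clec4d, Clec4e, Clec7a, C1qa and C1qc were at 0 in each library, and 12 of the 30 genes never exceeded 3 counts, among them C1qb, Mertk and Lgals3. The summed level of the list was 115.1, 132.8 and 186.4 CPM, of which Sirpa alone, an inhibitory receptor also found outside the myeloid lineage, gave 90.0, 102.8 and 130.8 CPM. Among 16 granulocyte genes, 1 was measured (Gfi1), and Elane, Ctsg, S100a8 and S100a9 were at 0. No mast cell or basophil gene of 9 was measured. In the 24 h library, where Adgre1, Csf1r, Itgax and Aif1 were highest, Lyz2, S100a8, S100a9, C1qa and C1qc had 0 counts and C1qb 2.

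Genes close to these receptors in function differed among themselves. Of 12 Fc receptor genes, 8 were measured and 7 met the minimum in control. Of the 7, 5 were at least 2-fold higher at 24 h and 0 lower, beside 5.44% and 2.09% of all such genes, and their median log2 ratio was 1.36. Fcer1g, the signalling chain that Fcgr3 needs at the cell surface, had 6.54, 11.1 and 16.8 CPM and was 2.57-fold higher at 24 h (2.23 to 2.97). Fcrl5 and Fcrla, B cell genes of this list, were 4.44-fold and 3.82-fold higher, and Fcamr, which binds IgM, 2.98-fold. Fcgr4, another activating IgG receptor, was 1.58-fold lower (1.22 to 2.05), and Fcgr1 had 3, 7 and 2 counts.

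Around Tyrobp, 16 of 26 adaptors, partners and kinases of ITAM signalling were measured and 15 met the minimum in control. Of the 15, Fcer1g was at least 2-fold higher at 24 h and 0 lower, beside 5.44% and 2.09%, and the median log2 ratio was 0.07. Siglech, a receptor that pairs with Tyrobp, had 16, 50 and 30 counts and met the minimum only at 24 h. Of the other receptors listed with Tyrobp, Trem2, Treml1, Sirpb1a, Cd300lb and Klrd1 had 0 counts in each library, Trem1 at most 4 and Clec5a at most 16. Syk, the kinase that binds ITAMs in both B cells and macrophages, had 515.7, 389.6 and 622.8 CPM.

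Around Csf1r, 12 of 16 genes were measured. Of the 11 that met the minimum in control, Cbl and Csf2rb were at least 2-fold higher at 24 h and Flt3 lower, beside 5.44% and 2.09% of all such genes, and the median log2 ratio was 0.40. Csf1, the ligand, had 13.5, 12.2 and 11.7 CPM, and the other ligand, Il34, had 0 counts. Cbl, which marks the receptor for degradation, was 2.36-fold higher (2.24 to 2.48). Csf2rb, the shared chain of the GM-CSF, IL-3 and IL-5 receptors, was 2.12-fold higher with some shared reads, and under the limit with the length trend removed (log2 ratio 0.91). Csf2ra had 25, 78 and 34 counts and met the minimum only in the treated libraries. Flt3, a related receptor kinase of progenitors and dendritic cells, went from 3.02 to 0.827 CPM and was 3.66-fold lower (2.36 to 5.89).

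Around Cd14, 15 genes were listed, from the Tlr4 complex, other Toll-like receptors and their signalling, with Cd36 and Itgb2. Of these, 14 were measured, all of them already in control. At 24 h, 1 was at least 2-fold higher and 1 lower, beside 5.44% and 2.09%. Tlr2, which detects lipopeptides, was 2.91-fold higher at 6 h (2.72 to 3.13) and 3.15-fold at 24 h (2.91 to 3.40), and Ly96, the MD-2 chain of the Tlr4 complex, was 2.02-fold lower at 24 h (1.46 to 2.84). Ly96 passed the limit with TMM and DESeq2 scaling, and missed it with upper quartile scaling (log2 ratio -0.99), by TPM (-0.70) and total counts (-0.86), and without the length trend (-0.65). Tlr4 itself had 3.31, 3.89 and 4.17 CPM. Over these 14 genes the median log2 ratio was 0.12 at 6 h and 0.18 at 24 h.

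Genes of phagocyte function were mostly within 2-fold of control. Of 19 genes of the phagocyte oxidase and of lysosomal enzymes, 17 were measured, and Ctsl, a lysosomal protease, was 2.496-fold lower at 24 h (1.55 to 4.18). Their median was -0.08 at 6 h and -0.07 at 24 h, and both turned positive with total counts and with TPM; removing the length trend turned that of 24 h alone. Cybb, the catalytic chain of the oxidase, had 316.9, 469.0 and 589.4 CPM and was 1.86-fold higher at 24 h (1.82 to 1.901), and past the limit with total counts and TPM (log2 ratios 1.05 and 1.16). Among 8 adhesion receptors related to Adgre1, 5 were measured, all already in control, and 2 were at least 2-fold higher and 0 lower at 24 h, beside 5.44% and 2.09%. Adgrg5 and Adgrg1 were 4.38-fold and 2.605-fold higher at 24 h, while the nearest relatives Adgre5 and Adgre4 had 1.83 and 0.0689 CPM in that library. The list's median was 0.09 at 6 h, or -0.15 with the length trend removed, and 0.23 at 24 h.

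Dendritic cells also carry Itgax, and their genes went both ways. Of 11 listed, 7 met the minimum in control, with Xcr1 higher and Batf3, Flt3 and Bst2 lower at 24 h, beside 5.44% and 2.09% of all such genes. Bst2, at a log2 ratio of -1.16, missed the limit without the length trend (-0.80), with TPM (-0.88) and with total counts (-0.999). The median log2 ratio of the 7 was -0.44. Clec9a and Cd209a had 0 counts. Batf3 and Irf8, factors of this lineage that B cells also express, were 3.75-fold and 1.36-fold lower at 24 h than in control.

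**Figure D5:**
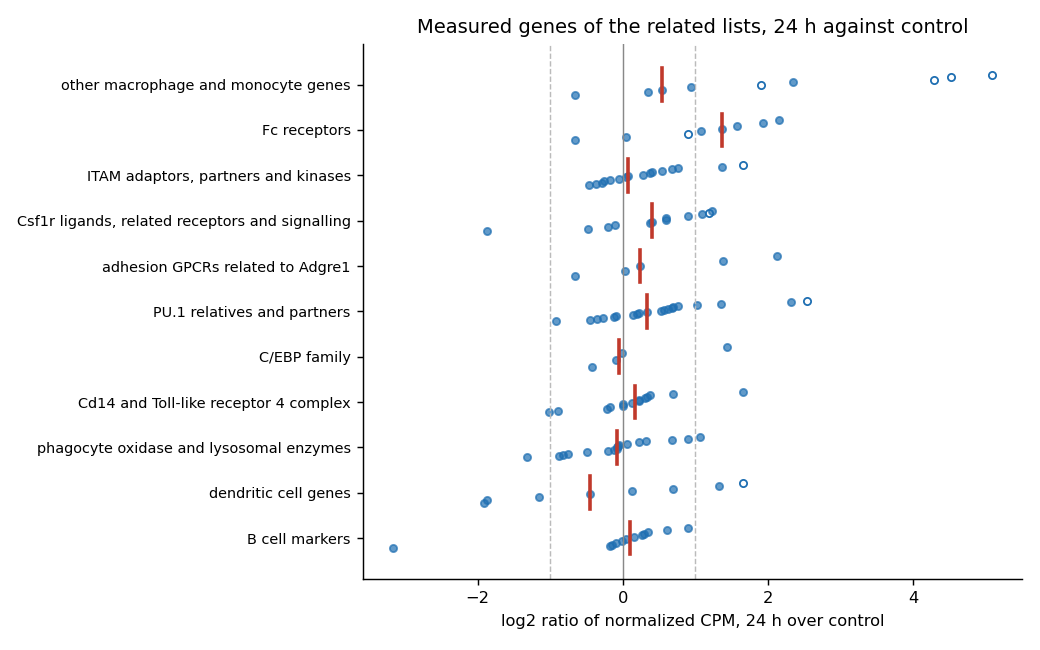
log2 ratio of normalized CPM at 24 h over control for each measured gene of 11 related lists, filled where the gene met the minimum in control and open where it met it only in a treated library; red bars are medians of the filled points and dashed lines mark 2-fold. Fc receptor genes lie mostly to the right, with a median of 1.36, the macrophage genes farthest to the right are open points, and genes of the oxidase and lysosome lie around 0.

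Over the 3 libraries, the genes whose centred log2 CPM lay nearest to each of the 3 higher genes were found by Euclidean distance among 10468 measured genes with counts in each library. Nearest to Csf1r were Hoxc6 (8.09, 15.9 and 25.1 CPM, distance 0.00887) and Natd1 (distance 0.0104), and 25 genes lay within 0.1. Nearest to Fcgr3 was Fam161a (distance 0.0145), with 16 genes within 0.1. For Adgre1 there were 0 genes within 0.1, and the nearest were Wfdc21 (0.411, 0.575 and 2.62 CPM, distance 0.15) and Gata1 (distance 0.271). Wfdc21 and Gata1 met the minimum only through the 24 h library, so a higher level there was fixed by how genes were selected. Fam161a, at 0.782 CPM in control, met the minimum only in the treated libraries. The distance uses 3 values per gene, takes no account of counting error and is a description, so nothing is read from the number of genes nearby.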

How the data were processed

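Polyadenylated RNA of 3 CH12 cultures was sequenced for 50 cycles, per the labels' protocols. CASAVA 1.8.2, STAR, RSEM, bedtools and the build mm10 are named in the submitters' processing notes. Annotation, strand setting and further versions were not given in the sources used here. Per the file headers, the authors deposited TPM, FPKM and an RSEM expected count for each gene row. Deposited TPM was used for levels between genes and the deposited FPKM only to check their order. Lengths are those of the deposited tables.

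Expected counts were rounded and scaled by TMM factors (edgeR 4.0.16 in R 4.3.3; 0.946 for control, 1.00 at 6 h and 1.06 at 24 h). Of the 10754 measured genes, 1239 had a fractional count in at least 1 library, the mark of reads divided between genes. All counts lay in protein-coding rows. As each group is 1 library, the spread between cultures is unknown and no p-value was computed. Genes were counted by size: a ratio of 2 or more where the higher library reached 1 CPM and 30 counts, a count of 0 being set to 3. Intervals are exact (Clopper-Pearson for ratios, Poisson for levels, 95%) and cover counting error only (the labels name no molecular identifiers, so reads are not independent molecules). The size rule and intervals were tested on simulated data.

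All 9 genes were named. From each of 17 lists, up to 4 genes past the size rule against control were named, ranked by the log2 ratio of CPM + 1 at 24 h, with all of a count of 5 or fewer; a few genes that this rule names are not reported here, and other genes were named for their role or after their values were seen. The genes and lists were chosen with earlier results of these data known. Windows of 50 bases came from GENCODE M21 transcripts (GRCm38), matched by RefSeq accession for all 9 genes. That annotation may differ from the authors'. List counts are over genes that met the minimum in control, a choice made after seeing the data. Motifs were searched in the 250 bases before each start, not in the transcribed bases after it as first planned. The alternatives were scaling by total counts, by upper quartile, by DESeq2 (1.42.0) or by TPM, removal of a length trend, no minimum, 5 CPM and 1.5-fold.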

Additional observations from a re-analysis of the deposited data

How the results depend on the processing

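The 3 genes higher at 24 h (Adgre1, Csf1r and Fcgr3) passed under each scaling, minimum and fold limit tried, and 2 remain if genes with shared reads are left out, an alternative chosen after seeing the data. At 6 h the count of 1 became 2 with total counts, the deposited TPM and a limit of 1.5-fold, and 0 with whole-count genes only. Without a minimum 1 gene, Lyz2, was lower at 6 h, from 6 counts. At 24 h against 6 h, 2 were higher at 1.5-fold. Over all genes, without a minimum the counts of higher and lower genes were 771 and 240 at 6 h, 549 and 239 at 24 h against 6 h, and 1405 and 438 at 24 h. At 5 CPM they were 153 and 22, 88 and 17, and 502 (higher) at 24 h, and at 1.5-fold 728 and 230, 684 and 227, and 1808 and 1274. Lower genes numbered 22 at 6 h with the deposited TPM, and 118 and 77 at 24 h with total counts and TPM. List medians against control that turned sign were, over all measured genes of a list, for the C/EBP family, -0.0082 at 6 h with DESeq2 size factors, and at 24 h 0.10 with total counts, 0.21 with TPM and 0.034 without the length trend. For oxidase and lysosomal genes they were 0.0019 and 0.088 at 6 h with total counts and TPM, and at 24 h 0.085 and 0.19 with these and 0.023 without the trend. Dendritic cell genes had 0.077 and 0.0018 at 6 h with total counts and upper quartile scaling, and adhesion receptors -0.15 at 6 h with the trend removed. At 24 h against 6 h, 6 further medians turned, none of them given above. With lists limited to genes that met the minimum in control, an alternative chosen after seeing the data, the macrophage list went from 5 higher genes at 24 h to 1 and from a median of 1.91 to 0.54. For the changes with scaling, the cause was not tested. Of 90 recomputed ratios of single genes, 5 changed sign, those of Spi1 and Tyrobp at 6 h. No paired analysis was possible because each group has 1 library. Cebpa, Cd14 and Lyz2 are limited by depth.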

Other observations

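Few markers of other lineages were measured. Of 8 fibroblast and endothelial markers, Pecam1 and Cdh5 met the minimum in control and were at least 2-fold higher at 24 h, as were 5.44% of all such genes. Pecam1, an adhesion molecule of endothelium, platelets and many leukocytes, had 1.65, 3.51 and 7.34 CPM, and Cdh5, an endothelial cadherin, had 1.81, 3.61 and 4.62 CPM. Col1a1 had 12 counts in control and 31 at 24 h and met the minimum only there, and Col1a2, Col3a1, Pdgfra, Kdr and Dcn never exceeded 3 counts. Of 7 erythroid and megakaryocyte markers, Gata1 met the minimum only at 24 h, 5.81-fold above control (3.22 to 11.1), while Hbb-bs and Pf4 had 0 counts in each library. Of 12 T cell markers, 10 had a row, and 3 of these met the minimum in control. At 24 h, 1 of the 3 was at least 2-fold lower and 0 higher, beside 2.09% and 5.44% of all such genes. That gene, Cd4, was 2.81-fold lower. Lck went the other way, with 152.8, 257.4 and 259.1 CPM, a log2 ratio of 0.76 at 24 h (1.03 with TPM). The summed level of the 10 T cell markers with a row was 161.9, 264.0 and 266.3 CPM. Prf1 was the 1 measured gene of the NK cell list, with 6.30, 6.48 and 8.89 CPM.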
